A study of Glycine max with 4 samples.

Results

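The regions described here are the stretches of 7 soybean genome sequences, numbered 14 to 20 in the deposited files, at which capped transcripts began. Tag clusters listed for shoot and for root were joined when they lay on the same sequence and strand and at most 100 bp apart, and this gave 7205 regions on sequences 14 to 20, of 23330 on all 20 sequences. The other 16125 lay on sequences 1 to 13. Choosing regions by sequence number used no level beyond the tags a cluster needs to be listed, and neither leading tissue, width nor strand entered the choice.

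Transcript starts were mapped by nanoCAGE, a method that sequences the 5′ ends of capped RNA, in shoots and roots of Williams 82, the cultivar behind the soybean reference genome. The shoots and roots were taken apart from plants aged 2 weeks that had been kept in white light at 300 µmol m-2 s-1, on days of 12 h light and 12 h dark. Both organs share this genotype, age and light, and each had 2 libraries made from 1 µg of total RNA. Whether the libraries of an organ came from separate plants is not stated in the labels, which number them 1 and 2.

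The base at which RNA polymerase begins a transcript is its start site, and starts of one promoter usually fall on a group of nearby bases. In sharp promoters, which in plants often carry a TATA box upstream, 1 base or a few bases take most of the initiation, while broad promoters spread it over a longer stretch. Shoots are known for very abundant transcripts of photosynthesis genes, and roots for transcripts of uptake, transport and cell wall enzymes. Gene names could not be attached to the regions, since no gene models or sequence of the assembly used in the files were at hand, so each region is named by sequence, strand and position as deposited.

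Levels on sequences 14 to 20 came from 1 pooled column per tissue, so every value below is a single measurement per tissue with no replicate error, and no test between shoot and root was possible. TPM here means the authors' pooled value per start position, summed over a region. It grew as a power of the number of tags, to the power 0.994 in shoot and 1.00 in root, and 1 tag was worth 0.329 TPM in shoot and 0.286 TPM in root. The regions held 603954 shoot tags and 663448 root tags. A tissue at 0 in a region was set to the level of 3 tags, 0.981 TPM in shoot and 0.859 TPM in root, so that a fold against it is a lower bound. Intervals of single ratios are exact binomial 95% intervals on the tags and those of shares are Wilson 95% intervals on the regions. They cover counting error only and leave out the spread between libraries. Reads amplified by PCR and lacking molecular identifiers may stem from 1 molecule, and to that extent the intervals of ratios are too narrow. In whole organs, fewer cells of a type and less RNA per cell cannot be told apart. Soybean has many near-identical gene copies, and tags of such copies may have been shared between regions before deposit.

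Shoot and root each drew on large sets of regions of these sequences. A cluster was listed in both tissues in 4052 regions (56.2%), in shoot alone in 1266 (17.6%) and in root alone in 1887 (26.2%). Over all 20 sequences these shares were 55.6%, 17.5% and 26.9%, so those on sequences 14 to 20 were near the background. Regions listed in both held 92.6% of the shoot TPM and 96.5% of the root TPM in regions. Any tag at all was found in both tissues in 78.7% of the regions, so a region listed in 1 tissue was often not empty in the other. Below 5 TPM in both tissues lay 3350 regions (46.5%), which together held 2.30% of the shoot TPM and 2.87% of the root TPM.

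At the other end, 32 regions reached 1000 TPM in shoot or root. They made up 0.444% of the regions and held 27.5% of the shoot TPM and 20.1% of the root TPM. On each sequence a minority of regions thus carried most of the signal, and 129 regions held 50% of all shoot TPM in regions of the 7 sequences, against 164 for root. The sums were 193338 TPM in shoot and 190652 TPM in root, which is 30.1% and 28.5% of the TPM in regions of all 20 sequences, for 30.9% of the regions.

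**Figure D1:**
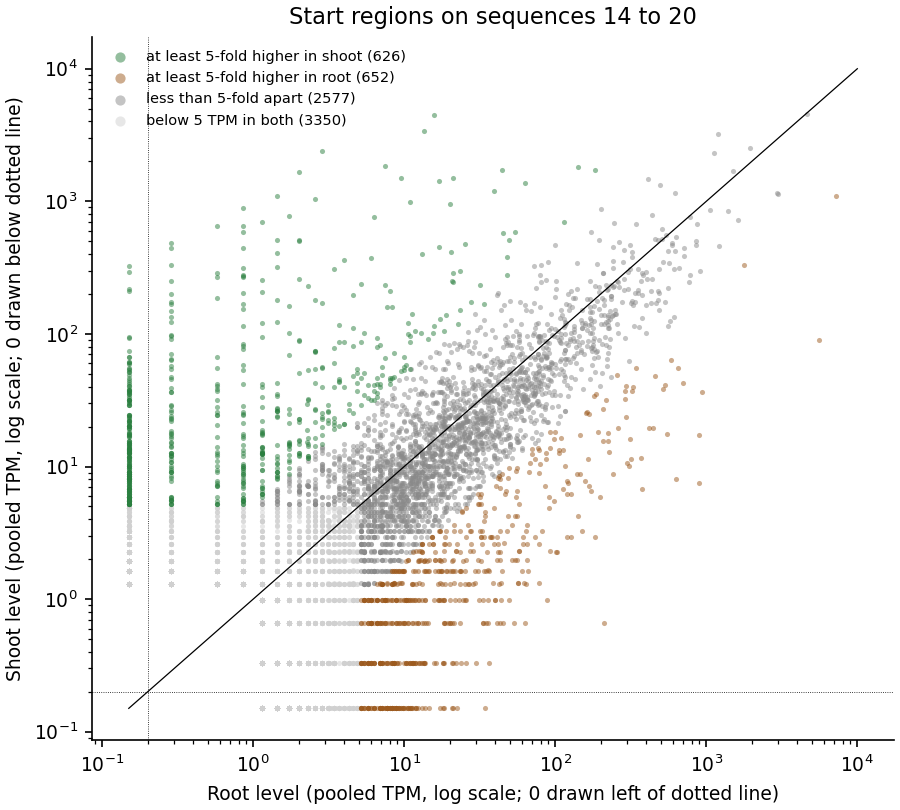
Each point is 1 of the 7205 regions on sequences 14 to 20, with its pooled shoot level against its pooled root level in TPM on log scales, the diagonal marking equal levels and regions at 0 drawn beyond the dotted lines. Of the 3855 regions of 5 TPM or more, 626 lay at least 5-fold above equality and 652 at least 5-fold below it. At least 100-fold above it lay 70 and at least 100-fold below it 3.

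Leading tissue was read in the 3855 regions of 5 TPM or more in the higher tissue. In 626 of them (16.2%, interval 15.1% to 17.4%) shoot was at least 5-fold higher, which is called led by shoot below. In 652 (16.9%, interval 15.8% to 18.1%) root was at least 5-fold higher, called led by root, and the other 2577 were less than 5-fold apart. Over all 20 sequences the same rule took 16.3% for shoot and 17.4% for root, so the shares on sequences 14 to 20 were near the background. They were 16.3% and 17.6% on sequences 1 to 13.

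A lead of shoot was more often extreme, while a slight lead of root was more common. Shoot was the higher tissue in 39.1% of the regions of 5 TPM or more, and the median log2 ratio of shoot over root, with 0.5 TPM added to each, was -0.44. At least 2-fold apart were 946 regions higher in shoot (24.5%) and 1355 higher in root (35.1%), against 24.4% and 35.8% over all 20 sequences. At least 10-fold apart were 407 higher in shoot (10.6%) and 353 higher in root (9.16%), where all 20 sequences had 11.0% and 9.69%. At 50-fold there were 123 in shoot (3.19%) and 29 in root (0.752%), against 3.35% and 0.952% over all 20. At 100-fold 70 regions (1.82%) were higher in shoot and 3 (0.0778%) in root, where all 20 sequences had 1.99% and 0.176% and the 8651 regions of sequences 1 to 13 had 179 and 19. The shares on sequences 14 to 20 were near the background up to 50-fold, and the 3 regions of root at 100-fold are too few to set against it. With the TPM as deposited and the floor of 5 TPM, root had more regions at 5-fold and shoot more at 10-fold. Shoot was already ahead at 5-fold with both tissues at the same total TPM (661 in shoot, 630 in root), with recovered tags scaled to their total in each tissue (704 and 690) and with a floor of 10 TPM (466 and 413).

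The split near 5-fold rested on the scale of the tissues. With shoot raised so that the median log2 ratio over all 20 sequences was 0, a shift of 0.45, 784 regions were led by shoot and 506 by root, and shoot took 60.8% of the led regions in place of 49.0%. Just outside the limit, between 4-fold and 5-fold, lay 57 regions higher in shoot and 110 higher in root. Between 5-fold and 6-fold there were 47 in shoot and 98 in root.

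Replicate error could be seen only on sequences 1 to 13, where counts per library cover 8447 regions of 5 TPM or more. Between the 2 libraries of a tissue the SD of the log2 ratio at 5 to 10 TPM was 0.87 in shoot and 0.86 in root, and at 500 TPM or more it was 0.33 in shoot and 0.61 in root. In 95% of the regions at 5 to 10 TPM the libraries differed by at most 3.10-fold in shoot and 3.22-fold in root. Leads read from summed library counts there numbered 1422 for shoot and 1398 for root. Leaving out a library of the lower tissue moved the leads most. Without shoot replicate 1, 96.0% of the regions led by shoot and 68.5% of those led by root were still 5-fold apart, and without root replicate 1 these shares were 83.1% and 89.6%. Whether the same holds on sequences 14 to 20 was not tested, as no library counts were used there.

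The 7 sequences differed in the balance of their summed levels and, mainly through sequence 20, in the share led by shoot. The ratio of summed shoot to summed root TPM ran from 0.814 on sequence 19 to 1.30 on sequence 14, which was also the highest of all 20 sequences. Shoot had more TPM than root on sequences 14, 15 and 18, and root had more on 16, 17, 19 and 20. With the strongest region of each sequence and tissue left out, shoot had more on 5 of the 7. The share of regions led by shoot lay between 15.3% and 18.2% on sequences 14 to 19 and at 11.7% on sequence 20. The share led by root ran from 14.8% on sequence 16 to 18.9% on sequence 18.

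**Figure D2:**
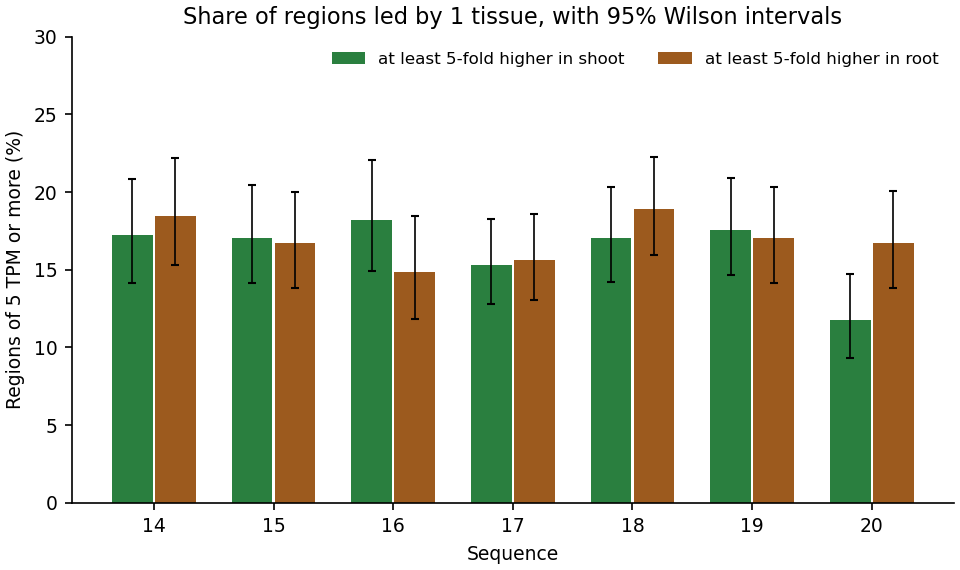
Bars give, for sequences 14 to 20, the share of regions of 5 TPM or more that were at least 5-fold higher in shoot (left bar) or in root (right bar), with 95% Wilson intervals that cover the number of regions only. The shoot bar of sequence 20, at 11.7%, is the lowest, and the other bars lie between 14.8% and 18.9%.

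Sequence 14 was the most thinly set of the 7, with 902 regions or 17.1 per Mb, and the one with the most concentrated shoot signal. Its regions summed to 30612 TPM in shoot and 23628 TPM in root, and 9 regions held 50% of the shoot TPM, against 26 for root. The strongest, on the minus strand from 632067 to 632095, reached 4493 TPM in shoot, 14.7% of the shoot sum, against 15.8 TPM in root. The ratio was 285 with an interval of 219 to 378. Position 632088 took 60.7% of its tags by TPM in shoot and 61.9% in root, so the weak root signal stood on the same base as the strong shoot signal. Another 3 regions of sequence 14 led by shoot reached 1000 TPM, of which the one on the minus strand from 3999120 to 3999200 had 2392 TPM in shoot and 2.86 TPM in root.

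The highest root level on sequence 14 belonged to a region strong in both tissues, on the plus strand from 377435 to 377536. It had 2519.9 TPM in shoot and 1947 TPM in root, and position 377514 alone took 85.7% in shoot and 84.0% in root. The strongest region led by root, on the plus strand from 3824812 to 3824834, had 7.47 TPM in shoot and 895 TPM in root, 119.8-fold higher in root with an interval of 79.7 to 189. A pair of bases, 3824814 and 3824816, carried most of it in either tissue, with 3.57 and 3.25 TPM in shoot and 343 and 477 TPM in root. The first 5 Mb of sequence 14 held 55.1% of its shoot TPM and 39.4% of its root TPM.

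Sequence 15 had 1051 regions that summed to 27374 TPM in shoot and 24385 TPM in root. Its highest shoot level, on the minus strand from 17427426 to 17427637, was 1829.9 TPM against 140.5 TPM in root, a ratio of 13.02 with an interval of 11.9 to 14.3. Its root level was thus far above that of the leading region of sequence 14. Its main base, 17427594, was the same in both tissues and took 65.7% in shoot and 59.98% in root.

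The highest root level on sequence 15 was again shared, at 1688 TPM in shoot and 1492 TPM in root on the minus strand from 4417836 to 4417967. Initiation there was spread: bases 4417853, 4417855 and 4417856 took 27.5%, 20.6% and 13.7% in shoot and 26.3%, 19.2% and 13.7% in root. The 3 strongest bases and their order were thus the same in both tissues. The strongest region led by root, on the plus strand from 916482 to 916575, had 54.99 TPM in shoot and 648 TPM in root, 11.8-fold higher in root. Another 3 regions led by shoot reached 1000 TPM. On the plus strand from 22475669 to 22475780, in a part of sequence 15 with few regions, one of them had 1653 TPM in shoot and 2.00 TPM in root. Its ratio of 826 rested on 7 root tags and had an interval of 401 to 2055.

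Sequence 16 had the fewest regions, 839, and its root signal was the most dominated by 1 region. The sums were 22819 TPM in shoot and 25985 TPM in root, and 27.9% of the root sum came from the plus strand between 3566171 and 3566485. That region had 1104 TPM in shoot and 7243 TPM in root, the highest root level on the 7 sequences. With the strongest region of each tissue left out, sequence 16 summed to 21657 TPM in shoot and 18742 TPM in root, so the higher tissue changed. The ratio of root over shoot there was 6.56 with an interval of 6.33 to 6.80, and it fell below 5-fold when the median log2 ratio was set to 0 (log2 ratio -2.27). The main base, 3566175, took 74.9% in shoot and 76.0% in root.

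The strongest region led by shoot on sequence 16, on the minus strand from 17067625 to 17067861, had 949.7 TPM in shoot and 20.1 TPM in root, a ratio of 47.3 with an interval of 37.4 to 60.9. It stood in the most thinly set 5 Mb of the sequence, which held 19 regions and 1143 TPM of shoot signal in all, against 133 TPM in root. The highest shoot level, on the plus strand from 2520220 to 2520389, was 1162 TPM against 620.2 TPM in root. Its main start differed between the tissues by 42 bp, at 2520306 in shoot and 2520264 in root, although each base was among the 3 strongest in both. A region even between the tissues, on the plus strand from 3801468 to 3801524, had 311 TPM in shoot and 313 TPM in root, with 81.3% in shoot and 81.4% in root on 1 base.

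Sequence 17 was the most densely set, with 1208 regions or 27.4 per Mb, and its summed levels were close, 34734 TPM in shoot and 35166 TPM in root. The strongest root signal, on the plus strand from 11386948 to 11387081, was 90.1 TPM in shoot and 5584 TPM in root, 62.0-fold higher in root with an interval of 55.1 to 69.98. It made up 15.9% of the root sum, and base 11387029 took 69.4% in shoot and 72.1% in root. The next 2 bases by level came in opposite order in the tissues, while the main base was shared. In shoot these 2 had 7.75 and 7.11 TPM, so their order there rested on very few tags.

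The highest shoot level on sequence 17, on the plus strand from 24519203 to 24519486, was 3206 TPM against 1199 TPM in root, a ratio of 2.67. It lay in a window of 5 Mb with 28 regions and held most of that window's 3405 TPM in shoot and 1443 TPM in root. The strongest region led by shoot, on the plus strand from 12202402 to 12202557, had 1735 TPM in shoot and 184 TPM in root, a ratio of 9.44. Bases 12202423 and 12202443, 20 bp apart, were the leading pair in both tissues but in opposite order, with 543 and 431 TPM in shoot and 46.0 and 54.3 TPM in root. An even region, on the plus strand from 15824330 to 15824368, had 557 TPM in shoot and 541 TPM in root.

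Sequence 18 had 1112 regions, with sums of 31655 TPM in shoot and 26489 TPM in root. Its strongest region, on the plus strand from 2149963 to 2150155, had 3417 TPM in shoot and 13.5 TPM in root, a ratio of 254 with an interval of 191 to 346. As on sequence 14, the few root tags centred on the shoot base, with 60.1% in shoot and 46.9% in root at 2150093. The other 2 shoot-led regions of 1000 TPM or more on sequence 18 had 1844 and 1092 TPM in shoot and 7.45 and 1.43 TPM in root, on the plus strand from 55960401 and from 47634754. The highest root level, on the minus strand from 986681 to 986708, was 329 TPM in shoot and 1776 TPM in root, 5.39-fold higher in root with an interval of 5.05 to 5.76. This lead was also lost with the median log2 ratio set to 0 (log2 ratio -1.98). A region even by the limit of 1.5-fold, on the minus strand from 2762451 to 2762485, had 861 TPM in shoot and 1066 TPM in root.

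Sequence 19 was led by a region used alike in both tissues. On the minus strand from 40020086 to 40020393, shoot had 4584 TPM and root 4650.4 TPM, a ratio of 0.986 with an interval of 0.964 to 1.01. It was the highest level in both tissues and held 17.7% of the shoot sum of 25949 TPM and 14.6% of the root sum of 31859.8 TPM. Base 40020389 took 74.4% in shoot and 75.9% in root, and the span from the 10% to the 90% point of the summed TPM was 4 bp in a region 308 bp wide. The next 2 regions of 1000 TPM or more on sequence 19 were higher in root by less than 5-fold, with 1143 and 457 TPM in shoot and 2976 and 1212 TPM in root, on the minus strand from 43899082 and from 48435517.

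Led regions held less of the signal on sequence 19 than on each of the other 6. Regions led by shoot held 21.6% of its shoot TPM, against 26.9% to 43.7% elsewhere on sequences 14 to 20, and regions led by root held 13.8% of its root TPM, against 17.2% to 37.5%. No led region of sequence 19 reached 1000 TPM. The strongest led by shoot, on the minus strand from 6822292 to 6822421, had 767 TPM in shoot and 6.30 TPM in root, a ratio of 122. The strongest led by root, on the plus strand from 53726563 to 53726658, had 36.5 TPM in shoot and 941 TPM in root, 25.8-fold higher in root.

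Sequence 20 had the lowest summed levels of the 7 and the flattest distribution. Its 1031 regions summed to 20194 TPM in shoot and 23138 TPM in root, and 50% of the TPM took 32 regions in shoot and 40 in root. Its strongest region, on the minus strand from 41236265 to 41236494, had 1507 TPM in shoot and 9.46 TPM in root, a ratio of 159 with an interval of 113 to 232. This was its one region of 1000 TPM or more. The highest root level, on the plus strand from 39632383 to 39632442, was 315 TPM in shoot and 662 TPM in root. The strongest led by root, on the plus strand from 50408259 to 50408298, had 63.1 TPM in shoot and 582 TPM in root, 9.23-fold higher in root.

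Few regions of sequence 20 were led by shoot. They numbered 64 of 545 (11.7%, interval 9.30% to 14.7%), and the next lowest of the 20 sequences was sequence 13 with 14.1%. The median log2 ratio of sequence 20, -0.62, was likewise the lowest of the 20, and shoot was the higher tissue in 33.6% of its regions of 5 TPM or more. In 8 settings of level, fold and scale, chosen for this after seeing the data, the share led by shoot on sequence 20 was the lowest of the 20 each time, at 7.89% with a fold of 10 and 19.3% with a fold of 2. Its share led by root, 16.7%, lay within the range of the other 6. The sequence was singled out after its values were seen and no test bears on its rank.

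**Figure D3:**
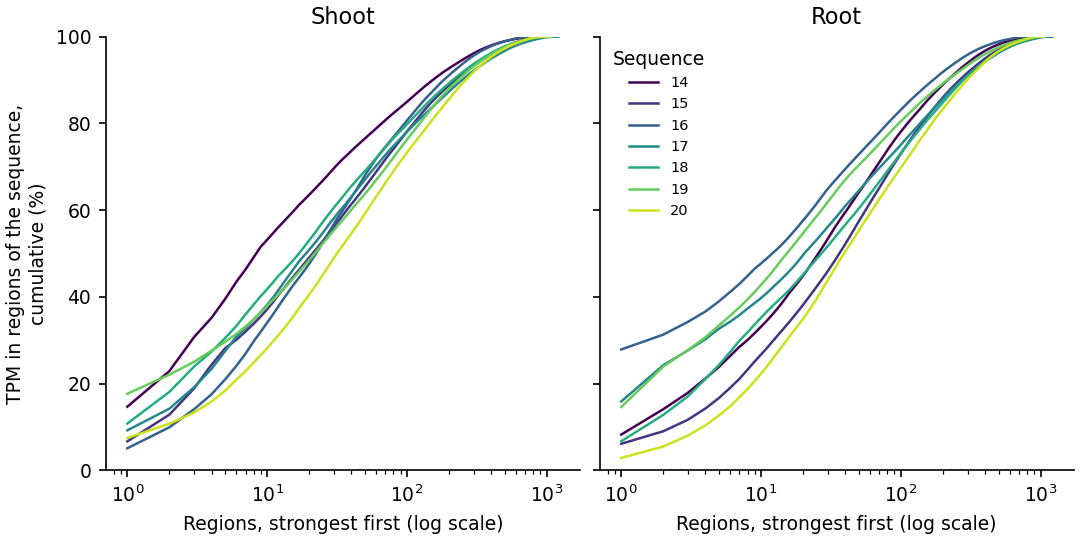
Curves show for each of sequences 14 to 20 the cumulative share of TPM in regions, with regions ordered from the strongest on a log axis, in shoot (left) and root (right). At 10 regions the largest shares of the 7 were 53.2% of shoot TPM on sequence 14 and 47.7% of root TPM on sequence 16, and the smallest were 28.2% in shoot and 22.3% in root, both on sequence 20.

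Among the 32 regions of 1000 TPM or more, 15 were led by shoot, 3 by root, and 14 were less than 5-fold apart. There were 98 such regions on sequences 1 to 13, of which 28 were led by shoot and 17 by root. The 15 led by shoot had 1032 to 4493 TPM in shoot and 1.43 to 184 TPM in root, with ratios of 9.44 to 836 and a median of 159. The 3 led by root, those named on sequences 16 to 18, had 90.1 to 1104 TPM in shoot and 1776 to 7243 TPM in root. The main base was the same in both tissues in 12 of the 15, in all 3 led by root and in 12 of the 14 others. The 15 shoot-led regions lay on 5 of the 7 sequences, with 4 each on sequences 14 and 15, 3 each on 17 and 18, and 1 on sequence 20.

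Complete absence of tags in 1 tissue reached higher levels on the shoot side. Of all regions, 689 had 0 root tags and 849 had 0 shoot tags, and of the 3855 of 5 TPM or more, 205 (5.32%) had 0 in root and 96 (2.49%) had 0 in shoot. Over all 20 sequences these shares were 5.01% without a root tag and 2.68% without a shoot tag, so both were near the background. The 8651 such regions of sequences 1 to 13 held 422 at 0 in root, of up to 404.5 TPM in shoot, and 239 at 0 in shoot, of up to 51.4 TPM in root. Of the 907 regions of 50 TPM or more on sequences 14 to 20, 18 had no root tag and 0 had no shoot tag. The share at this level was not counted over all 20 sequences, so these 2 counts have no background beside them. The strongest region without a root tag, on the plus strand of sequence 19 from 780041 to 780050, had 326.6 TPM in shoot, at least 380.3-fold higher than root. The next, on the plus strand of sequence 18 from 2853110 to 2853143, had 292 TPM in shoot, at least 340.5-fold higher. On sequence 17 the strongest such region, on the plus strand from 1703571 to 1703587, had 209 TPM in shoot, at least 244-fold higher.

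On the other 4 sequences the strongest regions without a root tag were weaker. They had 95.2 TPM in shoot on sequence 20, minus strand from 48104162, 61.4 on sequence 16, minus strand from 31657349, 58.9 on sequence 14, minus strand from 47399020, and 51.7 on sequence 15, plus strand from 47195668. Their shapes differed. The one on sequence 15 had its 158 shoot tags spread over 302 bp, with no base above 3.78% of the TPM, and the one on sequence 16 was 181 bp wide, whereas those on sequences 14 and 20 were 21 bp and 9 bp wide.

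The strongest region without a shoot tag had 34.5 TPM in root, on the minus strand of sequence 18 from 58663378 to 58663381, at least 35.1-fold higher than shoot. The strongest such regions of the other sequences had 22.4 TPM in root on sequence 19, 20.7 on sequence 15, 18.3 on sequence 14, 18.1 on sequence 17, 14.6 on sequence 20 and 10.6 on sequence 16. All 7 were narrow, from 2 to 31 bp. The bounds are limited by the level of each region, and a larger ratio was not detectable at this depth.

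Regions were shared almost evenly between the strands, while on single sequences the TPM was not. The plus strand had 3636 regions (50.5%) and the minus strand 3569, and on single sequences the plus share ran from 48.0% on sequence 18 to 52.9% on sequence 17. By TPM the plus strand held 36.5% of the shoot sum and 33.9% of the root sum on sequence 19, against 61.8% in shoot and 63.0% in root on sequence 17. The tissues parted on sequence 18, with 60.6% of shoot TPM and 42.8% of root TPM on the plus strand, and on sequence 16, with 45.4% in shoot and 67.7% in root. The region of 3417 TPM in shoot lay on the plus strand of sequence 18, and that of 7243 TPM in root on the plus strand of sequence 16. How much of each split came from these regions was not tested. Over all 7 sequences together the plus strand held 49.3% of shoot TPM and 51.4% of root TPM, and 314 of the 626 regions led by shoot and 332 of the 652 led by root lay on it.

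Width followed level. Over all 7205 regions the median width was 5 bp, and 2905 regions (40.3%) were a single base, 2693 of them below 5 TPM. In regions of 5 TPM or more the median was 41 bp, with quartiles of 9 and 82.5 bp, and the core, the span from the 10% to the 90% point of the summed TPM, had a median of 25 bp. The 749 regions over 100 bp wide (10.4%) held 44.0% of shoot TPM and 40.3% of root TPM. The core did not rise in step with level. Its median was 16 bp at 5 to 10 TPM, 31 bp at 10 to 100 TPM and 22 bp at 100 to 1000 TPM. In the 32 regions of 1000 TPM or more the median width was 106.5 bp but the core was 6.5 bp, so most of their width held few of the starts. The median width of regions of 5 TPM or more differed little between sequences, from 38 bp on sequences 17 and 19 to 46 bp on sequence 20, and from 37 to 45 bp on sequences 1 to 13.

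Regions led by shoot were wider than those led by root at equal level. At 5 to 10 TPM in the higher tissue the median widths were 14 bp for regions led by shoot, 6 bp for those led by root and 20 bp for those less than 5-fold apart. From 10 to 100 TPM they were 43, 21 and 50 bp, and at 100 TPM or more 105, 59 and 85.5 bp, in the same order. In each class regions led by root were the narrowest. Of the 652 regions led by root 302 (46.3%) were at most 10 bp wide, against 157 of the 626 led by shoot (25.1%). The medians on sequences 1 to 13 were 10 bp for shoot and 8 bp for root at 5 to 10 TPM, a smaller gap, then 48 and 20 bp from 10 to 100 TPM, and 97 and 52 bp at 100 TPM or more.

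The difference in width was also seen at equal tag number and on most sequences. With the tags of the leading tissue thinned to 50 per region, an alternative added after seeing the data, the median core was 34 bp in 351 regions led by shoot and 9 bp in 307 led by root. The corresponding values on sequences 1 to 13 were 32 and 8 bp. After thinning, the strongest base took a median of 40% of the tags in regions led by shoot and 54% in those led by root. Sequence by sequence, the full width from 10 to 100 TPM was larger for shoot on 6 of 7, with sequence 17 as the exception at 36 bp for shoot and 37.5 bp for root. The thinned core was larger for shoot on all 7, from 20.5 to 48 bp against 5 to 16 bp for root. The 2 tissues have different libraries, and the part of library preparation in this difference was not tested.

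**Figure D4:**
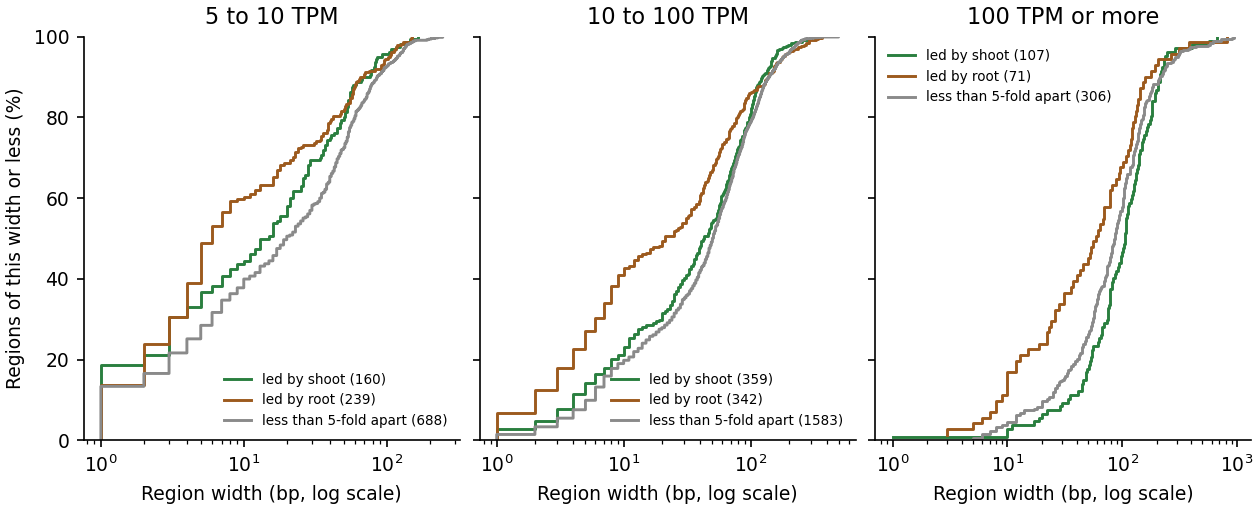
Curves give the share of regions at or below each width, on a log axis in bp, for regions on sequences 14 to 20 led by shoot, led by root or less than 5-fold apart, in 3 classes of level in the higher tissue. The root curve lies above the shoot curve over most widths in each panel, with median widths of 14 bp for shoot and 6 bp for root at 5 to 10 TPM, 43 and 21 bp at 10 to 100 TPM, and 105 and 59 bp at 100 TPM or more.

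The 5 widest regions of 5 TPM or more spanned 671 to 948 bp. The widest of 5 TPM or more, on the minus strand of sequence 16 from 3713062 to 3714009, spanned 948 bp with a core of 561 bp and had 787 TPM in shoot and 434 TPM in root. Its strongest base took 9.07% in shoot and 10.4% in root, at the same position. On the plus strand of sequence 19 from 39810505 to 39811406, 902 bp wide, the levels were 517 TPM in shoot and 458 TPM in root. The fourth widest, on the minus strand of sequence 20 from 50870383 to 50871107, was as even, at 507 TPM in shoot and 482 TPM in root, and was also the strongest even region of that sequence.

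Of the 5 widest, the other 2 were led by opposite tissues and both lay on sequence 20. On the minus strand from 45340648 to 45341467, 820 bp wide, shoot had 17.7 TPM and root 545.9 TPM, 30.8-fold higher in root with an interval of 23.5 to 41.2. Its root starts were spread over 400 bases and the strongest took 3.79%. On the plus strand from 41509037 to 41509707, 671 bp wide, shoot had 502 TPM and root 2.00 TPM, a ratio of 251 with an interval of 121 to 625. There the core was 114 bp, and 3 bases within 25 bp took 31.4%, 24.1% and 12.1% of the shoot TPM.

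**Figure D5:**
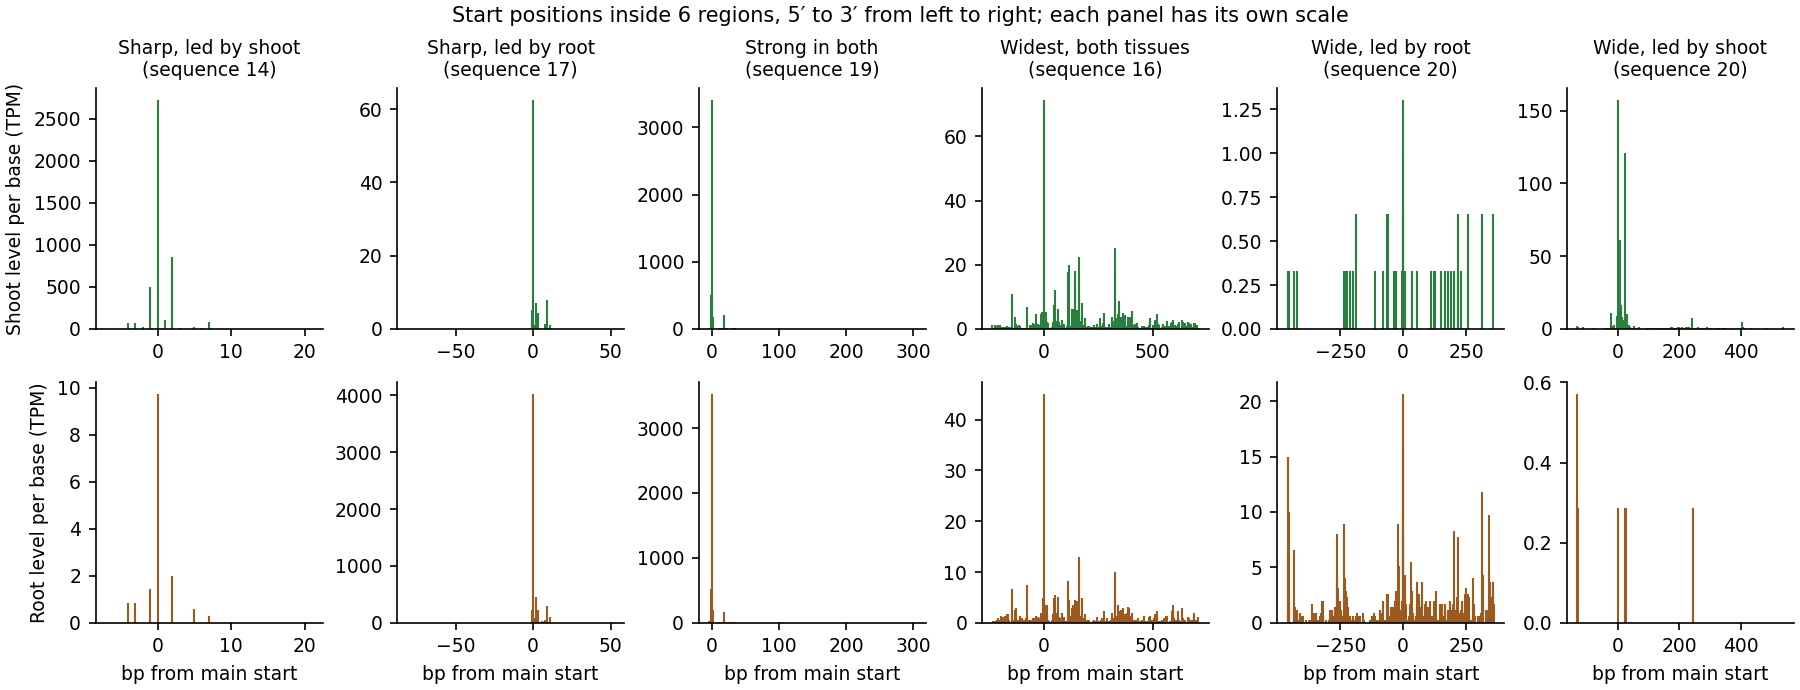
Pooled TPM per base is drawn against distance in bp from the main start, 5′ to 3′ from left to right, in shoot (upper row) and root (lower row) for 6 regions named in the text, each panel on its own scale. The sharp regions have 60.7% of shoot TPM on 1 base on sequence 14, 72.1% of root TPM on sequence 17 and 74.4% of shoot and 75.9% of root TPM on sequence 19, while the widest region, on sequence 16, and the root-led region on sequence 20 span 948 and 820 bp.

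Single-base regions stayed weak with few exceptions. The strongest, at base 37187326 on the minus strand of sequence 19, had 122 TPM in shoot and 1.43 TPM in root, a ratio of 85.5 with an interval of 36.3 to 265. The next 4 reached 32.8 to 45.1 TPM in the higher tissue, and 2 of these were higher in shoot and 2 in root. At base 53677694 on the minus strand of sequence 19 shoot had 45.1 TPM and root 8.03 TPM, 5.61-fold apart, and the other 3 were less than 5-fold apart. Of all single-base regions, 212 reached 5 TPM.

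Where both tissues had 5 TPM or more, they usually began transcripts at the same base. Such regions numbered 2146, and 157 with a tie for the strongest base were left out. Of the 1989 that remained, 1551 (78.0%) had the main start at the same base in shoot and root, 1711 (86.0%) within 10 bp, and 278 more than 10 bp apart. Part of this was fixed by width, since a single-base region has 1 possible main start and narrow regions cannot differ by more than 10 bp. Among the 2577 regions less than 5-fold apart, 115 were a single base and 603 at most 10 bp wide. How many such regions were among the 1989 was not counted. The share at the same base was 79.0% on sequences 1 to 13, and on single sequences from 14 to 20 it ran from 73.0% on sequence 19 to 83.7% on sequence 18. The main base took a median of 44.7% of the TPM in shoot and 43.8% in root. It took more than 50% in 814 regions in shoot and 828 in root.

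Main starts more than 100 bp apart occurred in 32 regions, and the 5 farthest apart were all less than 5-fold different in level. The largest distance, 515 bp, lay in a broad region on the minus strand of sequence 20 from 50867787 to 50868364, with 169 TPM in shoot and 117 TPM in root. No base dominated there: the main starts took 4.95% in shoot and 8.55% in root, and the root base was among the 3 strongest in shoot. In the region on the plus strand of sequence 14 from 276142 to 276453, with 109.9 TPM in shoot and 93.4 TPM in root, the main starts were 217 bp apart and took 23.3% in shoot and 11.98% in root. The 2 bases were nearly tied in root, where the shoot main base took 11.1%, but not in shoot, where the root main base took 5.59%. On the minus strand of sequence 18 from 59156408 to 59156612, with 70.2 TPM in shoot and 154 TPM in root, the main starts were 202 bp apart and took 23.8% in shoot and 26.2% in root. There the bases were nearly tied in shoot, where the root main base took 22.4%, while the shoot main base took 15.1% in root. The remaining 2, on sequences 19 and 16, rested on 36 to 44 tags per tissue, at 244 and 222 bp.

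Where both partners of a close pair were led, they shared the leading tissue on sequences 14 to 20, as they nearly always did on sequences 1 to 13. Among regions of 5 TPM or more, 109 pairs of neighbours stood on the same strand with at most 500 bp between them. In 26 pairs both were led by shoot, in 9 both by root, in 49 neither was led and in 25 a single partner was, and 0 pairs had opposite leads. Of 264 such pairs on sequences 1 to 13, 61 were both led by shoot, 38 both by root and 3 had opposite leads. Opposite leads were thus rare in both parts, and the 0 is near that background. Whether a pair is 1 promoter split by the clustering was not tested. Pairs with a strong weaker partner were picked after their values were seen. One led by shoot, on the minus strand of sequence 14, joined the stretch 52505140 to 52505361 (64.8 TPM in shoot, 0.286 TPM in root) and the stretch 52505533 to 52505764 (892 TPM in shoot, 0.859 TPM in root). In one led by root, on the plus strand of sequence 17, 8737525 to 8737612 had 3.27 TPM in shoot and 32.7 TPM in root, and 328 bp on, 8737940 to 8738092 had 55.3 TPM in shoot and 344 TPM in root.

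Divergent pairs, in which a minus-strand region starts up to 1 kb before a plus-strand region, were rare. There were 9 among regions of 5 TPM or more and 50 among all regions, against 37 and 136 on sequences 1 to 13. They took in 0.467% of the regions of 5 TPM or more and 1.39% of all regions. On sequences 1 to 13 these shares were higher, at 0.855% and 1.69%, and the difference was not tested. In 2 of the 9 both partners were led by shoot, in 6 neither was led and in 1 a single partner was. Of the 37 on sequences 1 to 13, 5 were both led by shoot and in 15 neither was led. A single partner was led in 16 of the 37, and 1 pair had opposite leads. The 2 shoot-led pairs are too few to set against that background. The first of the 2 was the pair around the strongest region without a root tag: the minus-strand base 779315 on sequence 19 had 14.2 TPM in shoot and 0 in root. It lay 726 bp from the plus-strand region at 780041. The other, on sequence 17, joined 7220361 to 7220409 (22.0 TPM in shoot, 0 in root) and 7220908 to 7220915 (12.0 TPM in shoot, 1.43 TPM in root). Regions on opposite strands overlapped in 14 cases, of which 3 had 5 TPM or more on both strands. Among the more numerous regions of sequences 1 to 13 these counts were 32 and 8.

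Regions crowded into parts of each sequence near its ends. Of the full windows of 5 Mb, the densest was the first on sequences 14 to 18, with 249 to 322 regions each. It was that from 45 to 50 Mb on sequence 19, with 275, and that from 40 to 45 Mb on sequence 20, with 282. The shorter last windows of sequences 16, 18 and 20 were denser per Mb than these, with 101.5, 59.9 and 91.0 regions per Mb. The thinnest full windows held 2 to 19 regions, and on sequence 20 the window from 15 to 20 Mb held 2, with 11.1 TPM in shoot and 22.1 TPM in root. Of 69 full windows, 38 had under 20% of the regions of the densest window of their sequence. These 38 covered 190 Mb and held 958 regions, 10.9% of shoot TPM and 9.89% of root TPM.

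In these thin windows led regions were about as frequent as elsewhere for shoot and less so for root. Of 475 regions of 5 TPM or more there, 78 (16.4%) were led by shoot and 64 (13.5%) by root, against 16.1% and 17.5% of 2994 regions in the other full windows. Strong regions occurred in them too. After the shared region of sequence 17 named above, the highest shoot levels there were those at 22475669 on sequence 15 and 17067625 on sequence 16. The next highest root level, on the minus strand of sequence 18 from 36830128 to 36830159, was 278 TPM in shoot and 781 TPM in root. No test was made of the difference between windows, as regions of a window are not replicates.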

How the data were processed

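The labels assigned 2 shoot and 2 root nanoCAGE libraries. Per the file headers, the deposited table of pooled TPM has 1 value per tissue and start position, the deposited count table has tags per library, and the deposited cluster lists have a start, end and strand per cluster and tissue. Aligner, clustering software and genome build: not given in the sources used here. The count table covers sequences 1 to 12 and part of 13 (479104 positions; 1 broken line left out), so sequences 14 to 20 had pooled values alone. Inverting the power function gave whole tags within 0.001 for 100% of the TPM values that the authors deposited. Library totals in the count table were 901261 and 655935 tags in shoot and 1000476 and 874004 in root.

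Clusters of both lists on the same sequence and strand at most 100 bp apart were joined, and TPM was summed per region and tissue with Python 3.11.15, pandas 2.3.3, numpy 2.4.6 and scipy 1.17.1. The TPM of a cluster's main position, 2 columns of the lists, was not used. Leading tissue needed 5 TPM in the higher tissue and a fold of 5. The steps were tested on simulated data. Library spread used log2 CPM with 0.5 added.

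Regions named per sequence were those with the highest shoot level, the highest root level, the most abundant led by each tissue, without a tag in root, without a tag in shoot and within 1.5-fold, abundance being the sum of both tissues. Over all 7 sequences they were the 5 widest of 5 TPM or more, the 5 strongest of a single base and the 5 with the farthest main starts. The members, rules and alternatives were chosen with earlier results of these data known. Other floors, folds, scales, merge distances, pseudocounts and left-out libraries were tried. Windows were 5 Mb, counted from position 1. No annotation of the assembly was used here, so gene lists and sequences are not reported.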

Additional observations from a re-analysis of the deposited data

How the results depend on the processing

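The number of regions ran from 6769 to 7207 as the merge distance was changed between 0 and 500 bp. The share led by shoot (16.2%) was 13.7% with a floor of 2 TPM, 18.96% with 50 TPM, 24.5% with a fold of 2, 10.6% with a fold of 10 and 19.2% with the median log2 ratio set to 0. The share led by root (16.9%) was 15.7%, 14.9% and 13.5% with floors of 2, 10 and 50 TPM, 35.1% and 9.16% with folds of 2 and 10, and 12.4% with the median log2 ratio set to 0. At 50 TPM shoot took 58.5% of the led regions. The median log2 ratio was -0.35 with both tissues at the same total. The median width was 4 bp by core, 41 bp in regions of 5 TPM or more and 7 bp with a merge distance of 500 bp. The plus strand had 49.3% by shoot TPM, and 78.7% of regions had a tag in both tissues. Shoot had more TPM on 5 sequences without the strongest regions and on 3 with them. Main starts were at the same base in 75.6% with 2 TPM and 82.4% with 20 TPM in each tissue, and within 10 bp in 86.0%. The causes of these moves were not tested beyond the construction of each alternative. On sequences 1 to 13, leaving out 1 library gave 1294 to 1409 regions led by shoot (1422 with all) and 1199 to 1367 led by root (1398 with all). The 14 strongest led regions, 1 per sequence and tissue, kept their direction in all 28 alternatives run on them. Each alternative was a rescaling of shoot, by a log2 shift of 0.069 or 0.45. Such shifts cannot reverse a lead of at least 5-fold, so this outcome was fixed in advance and is no check of the leads. Below 5 TPM, where 1 tag is 0.329 TPM in shoot and 0.286 TPM in root, a 5-fold difference was not read. No paired analysis was possible because the results come from no test and the pooled columns of sequences 14 to 20 carry no replicate numbers.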

Other observations

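Positions outside all regions were many but held a small part of the TPM. On sequences 14 to 20, 153834 of 221621 positions with a tag lay outside the regions, and they held 13.3% of the shoot TPM and 14.3% of the root TPM, against 12.5% and 12.9% on sequences 1 to 13. No such position was above 0.981 TPM in either tissue. The share outside was highest on sequence 20, where 82.9% of shoot TPM and 83.1% of root TPM lay inside regions.

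Regions 5 to 50 kb apart were also compared by leading tissue, on either strand. Around regions led by shoot, 16.8% of 1321 neighbours were led by shoot, close to the 16.2% of all regions of 5 TPM or more. Around regions led by root, 22.4% of 1428 neighbours were led by root, against 16.9% of all. On sequences 1 to 13 these shares were 16.9% around regions led by shoot and 19.9% around those led by root. A region can enter several such pairs, and the difference was not tested.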
